A study of Homo sapiens with 54 samples.

Results

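WM266-4, an established human melanoma line with an activating BRAF mutation, was treated for 24 h with 0.2 uM of an ERK1/2 inhibitor that the labels do not name. Its total RNA was compared with that of cells given the vehicle DMSO for 24 h. The comparison rests on 6 of the 54 arrays of the study, 3 per group, which were picked by their labels and lettered a, b and c. Of 17875 genes with 1 symbol on the arrays, 9703 were tested, those whose mean in at least 1 of the 10 inhibitor-arm groups exceeded the median of all values (7.86 log2).

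Cells given the same ERK1/2 inhibitor or DMSO for 3 h (3 arrays each) give the early response, and cells given 0.003 uM of the MEK1/2 inhibitor trametinib for 24 h (3 arrays) share the 24 h DMSO arrays with it. Cells of the same line carrying the inducible hairpin labelled shERK2, and cells carrying a non-targeting (NT) hairpin, both held in 100 ng/ml doxycycline for 7 days, have 3 arrays each. Cells were seeded 24 h before treatment. Each p rests on the spread between replicate arrays, pooled over all groups of its fit. The inhibitor arm also holds trametinib at 3 h. At 3 h and 24 h it holds the BRAF inhibitor LGX818 (0.05 uM) and the MEK inhibitor MEK162 (0.3 uM). The hairpin arm holds NT, shERK1 and shERK2 cells in 100 ng/ml doxycycline at days 3 and 7. Parental cells at the same days, with no doxycycline listed, complete it. Whether replicate arrays stand for separate cultures is not stated in the labels, so that spread may be technical.

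ERK1 and ERK2 are the last kinases of the RAS-RAF-MEK-ERK cascade, which mutant BRAF keeps active in many melanomas. They phosphorylate transcription factors of the ETS, AP-1 and MYC families. These raise D-type cyclins, growth genes and the pathway's own inhibitors, the sprouty proteins and the dual-specificity phosphatases. In melanocytes the same cascade restrains pigment genes under the lineage factor MITF.

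Array quality differed little between the groups. Array medians ran from 7.84 to 7.92 log2 with the inhibitor and from 7.81 to 7.88 with DMSO, and arrays within a group correlated at 0.997 or 0.998 on average. For the GAPDH control probe sets the 3' signal less the 5' signal, which grows as RNA degrades or labelling stops early, was 0.287 to 0.530 with the inhibitor and 0.185 to 0.291 with DMSO. That of ACTB overlapped (1.09 to 1.33 against 0.948 to 1.36). Without inhibitor array a, which had the value 0.530, 2975 genes were higher and 2941 lower, close to the full counts given next. Averaged over the 6 arrays, 8 of 9 melanoma markers on the array lay above the median level. So did 0 of 9 leukocyte and 0 of 8 endothelial markers, 1 of 7 epithelial markers (KRT10) and 3 of 10 fibroblast markers (COL1A2, FAP and POSTN). The endothelial marker KDR lay above it with DMSO alone (8.18, 8.40 and 8.62) and below it with the inhibitor (6.52, 5.97 and 6.32).

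After 24 h of ERK1/2 inhibitor most of the measured transcriptome had moved, mostly by small amounts. By limma at a Benjamini-Hochberg adjusted p under 0.05, 3265 genes were higher (33.6% of those tested) and 3061 lower (31.5%). In 3112 of the higher and 2958 of the lower genes, all 3 inhibitor arrays lay beyond all 3 DMSO arrays. The median size was 0.46 log2 among the higher genes and -0.50 among the lower, and 1791 and 1550 of them changed by under 0.5 log2. Of the tested genes, 431 rose at least 2-fold (4.44%) and 639 fell at least 2-fold (6.59%). Large changes leaned further towards falls: 66 genes rose and 216 fell at least 4-fold, and 10 rose and 41 fell at least 8-fold. The median over all tested genes was 0.016 log2. A gene with a DMSO level below the filter was tested through another group where it was higher, and its fold is less certain, since low levels may be background. Among the rises named below this holds for ATF3, BMF, CCDC146, CCN1, CCN5, CCND2, CD36, EFNB3, FGF1, FOSL2, FSTL3, HDAC5, HES6, ID2, KCNJ13, LIMCH1, LINC02984, MAL, MAP1LC3C, NAT16, PIK3IP1, RASGRP3, SERPINF1, SLC40A1, SLITRK6, SPOCK1, TAC1, TMEM67 and WIPF3. Falls that ended below the filter with the inhibitor, among them those of EGR3, ETV4, SPATS1 and TM4SF1, are less certain in size for the same reason. In the lists below, a member is called higher or lower by the limma test above, and a list's share of calls is read against 33.6% and 31.5%. A member below the filter with DMSO at both times could be tested only through an inhibitor group where it was higher. Where few members on the array were tested, a list's counts and median therefore lean towards rises.

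**Figure D1:**
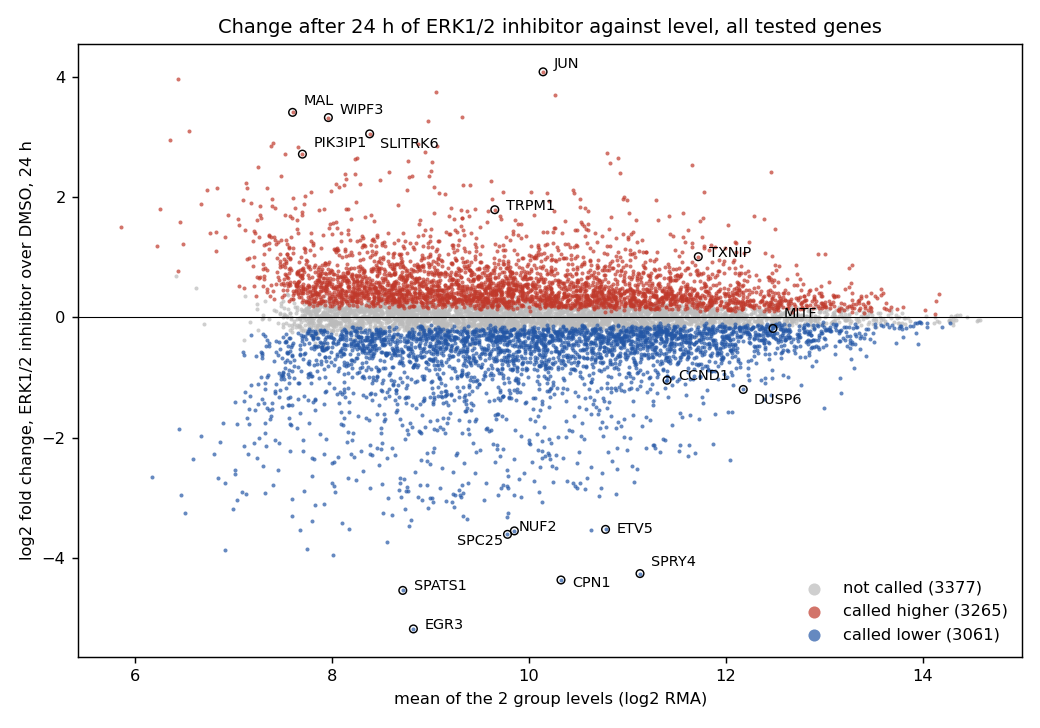
Each point is 1 of 9703 tested genes, with the mean of its DMSO and ERK1/2 inhibitor levels at 24 h (log2 RMA) on the x axis and its log2 fold change on the y axis; red marks the 3265 called higher, blue the 3061 called lower. Falls reach further from 0 than rises, with EGR3, SPATS1, CPN1 and SPRY4 below -4 and JUN as the only labelled gene above 4.

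The pathway's own inhibitors were mostly lower. SPRY4, a sprouty protein that damps receptor signalling to RAS, stood at 8.86, 9.07 and 9.06 log2 on the inhibitor arrays and 13.28, 13.22 and 13.28 on the DMSO arrays. It fell by 4.26 ± 0.15 log2 (SE), 19.2-fold (adjusted p = 3.03e-19). DUSP6, the cytoplasmic phosphatase of ERK, stood at 11.43, 11.67 and 11.63 log2 on the inhibitor arrays and 12.71, 12.88 and 12.74 on the DMSO arrays, and it fell by 1.20 ± 0.081 log2 (SE), 2.30-fold (adjusted p = 7.03e-13). For both genes every inhibitor array lay below every DMSO array, and SPRY4 moved much further than DUSP6. SPRY1, another sprouty protein, fell by 2.18, and DUSP5, a nuclear ERK phosphatase, by 1.46 log2. Of 14 tested feedback inhibitors 8 were lower and 2 higher (median -0.39), the 2 higher ones being the RAF inhibitor PEBP1 (0.23) and the RAS inhibitor NF1 (0.27). Of 9 genes often used as a readout of pathway activity 8 were lower and 0 higher (median -1.05).

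The immediate early and ETS factors split into a group that fell steeply and a group that rose. EGR3, a zinc-finger immediate early factor, showed the largest fall of any tested gene. It stood at 5.82, 6.59 and 6.30 log2 on the inhibitor arrays and 11.32, 11.54 and 11.39 on the DMSO arrays, and it fell by 5.18 ± 0.16 log2 (SE), 36.3-fold (adjusted p = 4.83e-20). Its inhibitor arrays spread over 0.77 log2, far less than the gap to the DMSO arrays. EGR1 fell by 2.96 log2. The PEA3 factors of the ETS family, which act downstream of ERK, fell together: ETV4 stood at 5.62, 6.07 and 6.41 with the inhibitor and 10.06, 9.90 and 10.01 with DMSO, ETV5 at 8.62, 9.08 and 9.35 with the inhibitor and 12.37, 12.70 and 12.55 with DMSO. Both sets lay apart, and the inhibitor arrays were the more spread. ETV4 fell by 3.96, ETV5 fell by 3.53 and their relative ETV1 fell by 3.42 log2.

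The AP-1 family went both ways. FOSL1, the FOS-family partner that accumulates under ERK signalling, stood at 9.76, 9.63 and 9.25 log2 on the inhibitor arrays and 11.61, 11.41 and 11.53 on the DMSO arrays, without overlap, and fell by 1.97 ± 0.13 log2 (SE), 3.92-fold (adjusted p = 1.80e-13). JUN had the largest rise of all tested genes, from 8.05, 8.09 and 8.17 log2 with DMSO to 12.24, 12.18 and 12.14 with the inhibitor. It rose by 4.08 ± 0.064 log2 (SE), 16.9-fold (adjusted p = 6.08e-26), and its arrays within each group lay within 0.12 log2 of each other. The FOS-family FOSL2 rose by 1.34 and the stress factor ATF3 rose by 1.96 log2. The orphan receptor NR4A2 rose by 1.04. Of 26 tested immediate early factors 14 were lower and 8 higher, with a median of -0.25. MYC stood at 11.14, 10.72 and 10.63 with the inhibitor and 11.67, 11.72 and 11.96 with DMSO, with a gap between the groups of about the spread within the inhibitor group, and fell by 0.95 ± 0.15 log2 (SE), 1.93-fold (adjusted p = 2.60e-06).

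**Figure D2:**
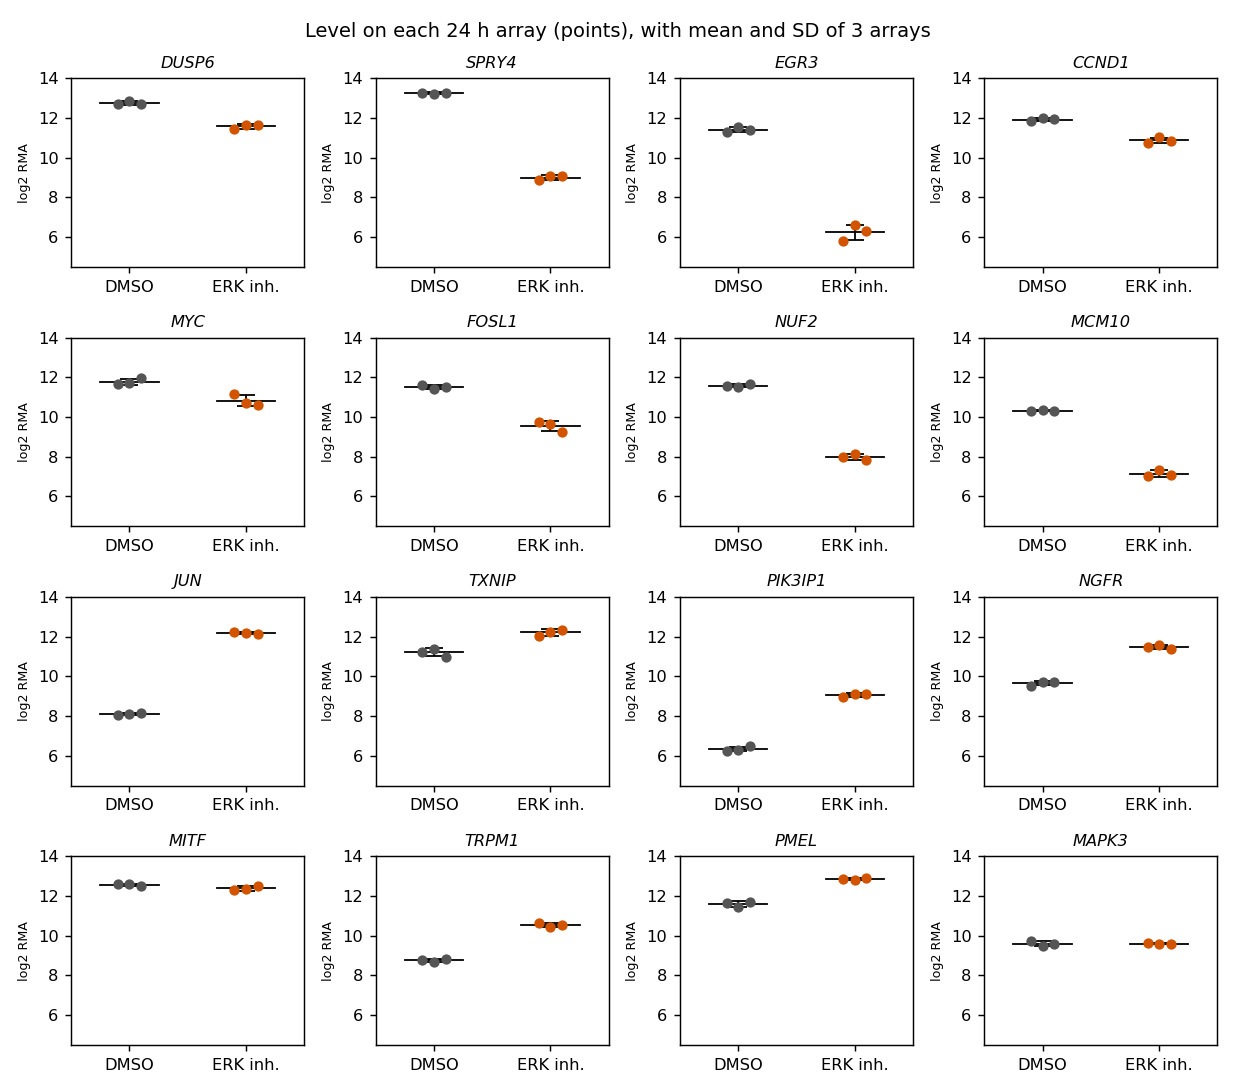
Points are the log2 RMA level of 16 genes on each of the 3 DMSO (grey) and 3 ERK1/2 inhibitor (orange) arrays at 24 h; lines are the mean and bars the SD of 3 arrays. SPRY4, EGR3 and NUF2 drop and JUN, PIK3IP1 and NGFR climb far beyond the spread within a group, while the MAPK3 arrays of the groups overlap.

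Among the kinases and adaptors of the cascade, transcripts of a RAS activator and a RAS-family GTPase were higher. Those of HRAS and of 2 ribosomal S6 kinases, which ERK activates, were lower. RASGRP3, an exchange factor that loads RAS with GTP, stood at 9.05, 9.0 and 9.18 with the inhibitor and 6.21, 6.14 and 6.35 with DMSO, without overlap, and rose by 2.84 ± 0.10 log2 (SE), 7.16-fold (adjusted p = 1.60e-18), from a DMSO level below the filter. RRAS rose by 1.68. MKNK1, a kinase of the translation factor eIF4E, rose by 0.73, whereas RPS6KA5 fell by 1.36, RPS6KA1 fell by 0.85 and HRAS fell by 0.46. MAPK3, which encodes ERK1 itself, stood at 9.62, 9.58 and 9.60 with the inhibitor and 9.73, 9.49 and 9.61 with DMSO, so its groups overlapped, and its difference was -0.011 log2 (adjusted p = 0.908; 95% interval -0.17 to 0.15). In all 9 of 19 kinases and adaptors were higher and 3 lower (median 0.090).

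Receptor and ligand transcripts moved in both directions. Among 13 tested receptor tyrosine kinases, from 36 on the array, 5 were higher and 4 lower, close to the shares over all genes. The collagen receptor DDR1 rose by 1.11 and ERBB2 rose by 0.91, while the VEGF receptor KDR fell by 2.13 and IGF1R fell by 0.84. AXL, a receptor linked to drug-tolerant melanoma, stood at -0.077 (adjusted p = 0.208). Of 13 growth factor ligands 7 were lower and 5 higher. TGFA, an EGFR ligand, fell by 2.29 and the stress cytokine GDF15 fell by 1.85, and FGF1 rose by 2.28 from 7.35 to 9.62 log2.

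Cell division genes fell as a block. All 63 tested genes of the G2/M, kinetochore and spindle list were lower (median -2.75, from -3.61 to -1.52), as were all 46 of the G1/S and replication list (median -1.92, from -3.36 to -0.18). NUF2, a subunit of the NDC80 complex that ties kinetochores to microtubules, stood at 7.97, 8.12 and 7.84 log2 on the inhibitor arrays and 11.56, 11.53 and 11.67 on the DMSO arrays. It fell by 3.61 ± 0.095 log2 (SE), 12.2-fold (adjusted p = 2.35e-21). Its partner SPC25 fell by 3.55, the mitotic kinase AURKB by 3.54, and the spindle proteins SKA1 and KIF15 by 3.47 and 3.39 log2. The smallest falls of the list were those of PTTG1, which encodes securin, and FOXM1, the transcription factor of many of these genes (both -1.52), so none of the 63 stood near the median of all genes. In bulk RNA, fewer cells in a phase and less transcript per cell cannot be told apart.

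Among replication genes the largest falls were those of E2F8, a repressor of the E2F family (-3.36), of POLE2, a subunit of DNA polymerase epsilon (-3.25), and of MCM10, which helps to start replication forks. MCM10 stood at 7.02, 7.35 and 7.08 with the inhibitor and 10.33, 10.37 and 10.29 with DMSO, and it fell by 3.18 ± 0.13 log2 (SE), 9.07-fold (adjusted p = 1.11e-17). The list was wider than the mitotic one: PCNA stood at -1.01, the cyclin CCNE1 at -0.35 and E2F7 at -0.18. Of 20 genes of homologous recombination and Fanconi repair 19 were lower (median -1.93), led by the helicase BLM (-3.06), the polymerase POLQ (-3.02) and the exonuclease EXO1 (-2.91). RAD54B was the exception, at 0.13 and not called.

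The promoters of the mitotic and replication genes with the largest falls that hold a cell-cycle motif are shown, since all members of these lists were lower. They are RefSeq promoters of build GRCh38.p14, from 250 bases before to 50 after the start, and 8158 of the 9703 tested genes had one. Capitals mark, on either strand, TTTGAA (the cell-cycle homology element) or CCAAT in the first pair, and TTTCCCGC, TTTGGCGC, TTTCGCGC or TTTGCCGC (E2F sites) in the second; no marked words overlap. NUF2 lies at chr1:163321704-163322003 (plus strand), SPC25 at chr2:168890381-168890680 (minus strand), POLE2 at chr14:49688165-49688464 (minus strand) and GINS1, a subunit of the replicative helicase complex, at chr20:25407423-25407722 (plus strand).
NUF2: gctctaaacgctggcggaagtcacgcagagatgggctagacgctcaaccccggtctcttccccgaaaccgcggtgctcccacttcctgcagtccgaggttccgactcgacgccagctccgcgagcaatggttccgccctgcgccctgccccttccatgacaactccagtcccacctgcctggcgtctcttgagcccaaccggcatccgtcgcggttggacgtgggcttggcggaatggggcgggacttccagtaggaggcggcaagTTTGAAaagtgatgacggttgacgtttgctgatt
SPC25: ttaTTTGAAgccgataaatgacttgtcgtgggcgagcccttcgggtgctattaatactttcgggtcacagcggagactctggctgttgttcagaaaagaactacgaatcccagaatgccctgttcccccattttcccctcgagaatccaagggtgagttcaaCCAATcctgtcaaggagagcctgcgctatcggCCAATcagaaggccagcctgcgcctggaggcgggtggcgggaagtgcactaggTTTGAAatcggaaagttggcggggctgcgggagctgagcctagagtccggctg
POLE2: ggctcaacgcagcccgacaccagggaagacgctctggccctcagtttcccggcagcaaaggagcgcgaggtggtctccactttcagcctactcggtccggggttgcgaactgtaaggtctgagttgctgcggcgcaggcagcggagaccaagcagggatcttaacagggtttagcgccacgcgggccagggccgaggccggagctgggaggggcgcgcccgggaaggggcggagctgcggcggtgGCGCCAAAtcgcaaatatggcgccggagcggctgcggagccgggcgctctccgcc
GINS1: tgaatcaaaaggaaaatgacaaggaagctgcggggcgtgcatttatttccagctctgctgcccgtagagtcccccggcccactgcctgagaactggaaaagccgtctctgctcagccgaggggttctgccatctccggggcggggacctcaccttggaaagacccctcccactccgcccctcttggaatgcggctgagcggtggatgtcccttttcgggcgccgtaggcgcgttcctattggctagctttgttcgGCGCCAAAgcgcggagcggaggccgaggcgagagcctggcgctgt

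TTTGAA was present in 36 of 54 promoters of the mitotic list (66.7%), against 9.76% of all 8158, and CCAAT in 39 of 54 (72.2%) against 37.2%. In the replication list TTTGAA was present in 2 of 39 promoters (5.13%), and an E2F word in 21 of 39 (53.8%) against 5.66% of all. Over all genes called lower, TTTGAA was in 13.4% and an E2F word in 7.90% of 2583 promoters, and over those called higher in 7.91% and 4.03% of 2730. GINS1 fell by 2.86 log2. The AP-1 words TGACTCA and TGAGTCA were in 3.33% of the promoters of higher and 2.90% of those of lower genes, against 2.94% of all. These matches describe the letters in the windows and were not tested.

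The regulators of the G1 checkpoint moved less. CCND1, cyclin D1, stood at 10.77, 11.03 and 10.85 with the inhibitor and 11.85, 11.99 and 11.94 with DMSO, without overlap, and fell by 1.05 ± 0.068 log2 (SE), 2.07-fold (adjusted p = 2.76e-13). CCND2 stood at 8.08 ± 0.016 against 6.83 ± 0.13 log2 (SD, n = 3 each) and rose by 1.25, and CDKN1B, which encodes the CDK inhibitor p27, rose by 0.50. CDKN1A, which encodes p21, stood at 0.09 (adjusted p = 0.147; 95% interval -0.022 to 0.20), and it passed without inhibitor array a (0.16, adjusted p = 0.0119). Of 14 such genes 5 were lower and 3 higher. Of the 10 tested genes of the histone list 6 were lower, among them H4C3 (-1.76) and the linker histone H1-2 (-1.54), and H2BC21 (1.25) and H2BC12 (0.78) were higher. Histone genes outside that list fell further, with H3C3 at -3.17, H1-3 at -3.08 and H1-1 at -2.83.

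The growth machinery was lower with few exceptions, by less than the cell cycle genes. Of 37 genes of ribosome biogenesis and RNA polymerase I 35 were lower and 0 higher (median -0.75), and of 22 of nucleotide and one-carbon synthesis 20 were lower and 0 higher (median -0.72). LYAR and NOP16, nucleolar proteins, fell by 1.32 and 1.27, and DKC1, the pseudouridine synthase dyskerin, by 1.23 log2. MTHFD2, a mitochondrial enzyme of the folate cycle, stood at 9.06, 9.50 and 8.98 with the inhibitor and 10.98, 11.37 and 11.47 with DMSO, without overlap, and fell by 2.09 ± 0.13 log2 (SE), 4.27-fold (adjusted p = 1.20e-13). Of 30 nuclear pore and transport genes 28 were lower (median -0.65), among them RCC1, the exchange factor of RAN (-1.42), and the pore subunit NUP205 (-1.24). The spliceosome (31 of 44 lower, 0 higher, median -0.35) was led by the core protein SNRPB (-1.24).

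Protein synthesis and turnover genes shifted by smaller amounts. Mitochondrial ribosomal proteins were lower in 31 of 44 and higher in 1 (MRPL44, 0.73), aminoacyl-tRNA synthetases lower in 16 of 35 and higher in 2, and proteasome subunits lower in 20 of 26 and higher in 1 (PSMC2, 0.35). Chaperones were lower in 17 of 24 and higher in 3. Among these, CRYAB, the small heat shock protein alphaB-crystallin, rose by 2.41 ± 0.079 log2 (SE), 5.33-fold (adjusted p = 1.30e-19), against a list median of -0.32. Cytosolic ribosomal proteins hardly moved: 3 of 19 were higher and 3 lower, and all 19 lay between -0.12 and 0.24 log2. RPS6 stood at -0.089 and changed sign, to 0.011, when quantile normalisation was repeated.

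Energy genes did not move as one. Respiratory chain and ATP synthase subunits were higher in 16 of 44 and lower in 3 (median 0.069), all within 0.47 log2 of DMSO. PPARGC1A, a coactivator of mitochondrial biogenesis that MITF drives in melanoma, stood at 12.17 ± 0.18 against 11.51 ± 0.072 log2 (SD, n = 3 each), without overlap, and rose by 0.66 ± 0.081 log2 (SE), 1.58-fold (adjusted p = 7.25e-08). The mitochondrial transcription factors TFB1M and TFAM fell by 1.88 and 1.01 log2. Of 18 glycolysis genes 12 were lower and 2 higher. The regulatory enzyme PFKFB4 fell by 2.09, the glucose transporter SLC2A3 fell by 1.68 and hexokinase HK2 fell by 1.20, while TXNIP, a brake on glucose uptake, rose by 1.01, at 12.22 ± 0.16 against 11.22 ± 0.21 log2 (SD, n = 3 each).

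Hypoxia genes were lower in 12 of 21 and higher in 7, with the carbonic anhydrase CA12 at 7.81, 7.76 and 7.73 with the inhibitor and 10.19, 10.15 and 10.15 with DMSO, a fall of 2.40 log2. The related factor EPAS1 rose by 0.75. In lipid handling, CD36, a scavenger receptor that takes up fatty acids, stood at 10.95, 10.94 and 10.91 log2 on the inhibitor arrays and 7.14, 7.10 and 7.31 on the DMSO arrays and rose by 3.75 ± 0.099 log2 (SE), 13.4-fold (adjusted p = 2.35e-21). The fatty acid binding protein FABP7 fell by 2.12, lipoprotein lipase LPL fell by 1.73 and the elongase ELOVL6 fell by 1.12. Of 22 fatty acid genes 7 were higher and 5 lower, and of 21 cholesterol genes 7 and 7, the latter close to the shares over all genes. In iron handling (7 of 13 higher, 5 lower) the exporter ferroportin, SLC40A1, rose by 2.16, and the transferrin receptor TFRC fell by 0.67. Oxidative stress genes went 8 of 29 each way, with the cystine transporter SLC7A11 at -1.68 and catalase, CAT, at 0.80.

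Most members of the lysosome, autophagy and FOXO target lists were higher. Lysosomal genes were higher in 31 of 44 and lower in 2 (median 0.39), led by the cathepsins CTSF (1.22) and CTSK (1.13) and the acid glucosidase GAA (1.18), while the cholesterol exporter NPC1 stood at -0.68. Autophagy genes were higher in 25 of 33 and lower in 2 (median 0.37). MAP1LC3C, an LC3 paralog of the autophagosome membrane, stood at 10.97, 11.03 and 10.98 log2 on the inhibitor arrays and 7.40, 8.12 and 7.44 on the DMSO arrays, without overlap although 1 DMSO array lay 0.7 log2 above the others, and rose by 3.34 ± 0.11 log2 (SE), 10.1-fold (adjusted p = 1.96e-19). OPTN, an autophagy receptor, rose by 1.34.

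FOXO targets and insulin-PI3K feedback genes were higher in 21 of 27 and lower in 4 (median 0.39). PIK3IP1, which inhibits PI3K, stood at 8.96, 9.11 and 9.11 log2 on the inhibitor arrays and 6.26, 6.29 and 6.48 on the DMSO arrays and rose by 2.71 ± 0.10 log2 (SE), 6.56-fold (adjusted p = 1.99e-18), also from a DMSO level below the filter. PINK1, the kinase that marks damaged mitochondria, rose by 1.63 and the PI3K subunit PIK3R3 rose by 1.60, as did the atrophy ligases TRIM63 (1.39) and FBXO32 (1.29). The 4 lower members were IGF1R, IGFBP3, IGFBP5 and TRIB2, from -0.84 to -0.20 log2.

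**Figure D3:**
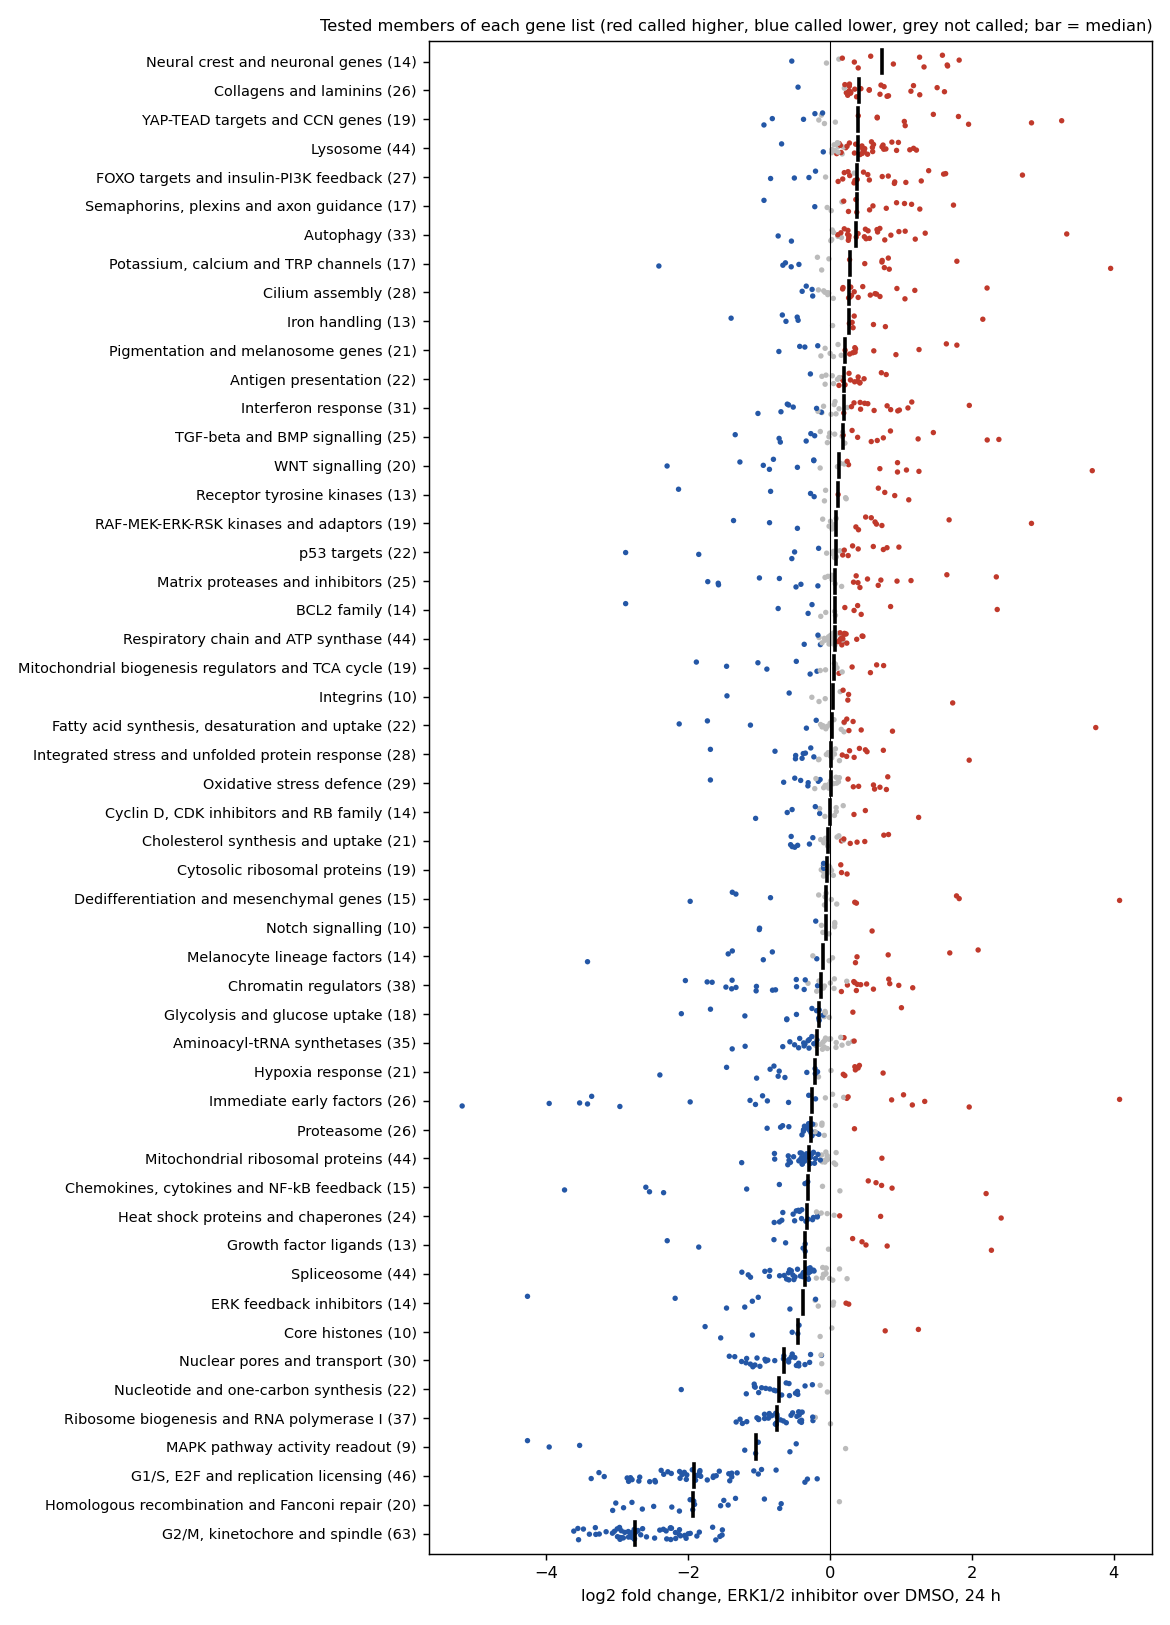
Points are the log2 fold changes (x axis) of the tested members of the gene lists shown, each with at least 9 of them, 1 list per row with its number of tested members, sorted by median (bar); red points were called higher, blue lower and grey not called. The 3 division and repair lists stand apart below -1.9, growth machinery lists sit between -0.8 and -0.2, and lysosome, autophagy, FOXO, collagen and neural crest lists lie above 0.

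Part of the pigment programme rose while MITF itself fell slightly. MITF stood at 12.29, 12.35 and 12.53 with the inhibitor and 12.61, 12.61 and 12.50 with DMSO; the groups overlapped, and it fell by 0.18 ± 0.048 log2 (SE), 1.14-fold (adjusted p = 0.00148). TYRP1, an enzyme of melanin synthesis, stood at 13.13, 13.23 and 13.27 with the inhibitor and 11.55, 11.55 and 11.60 with DMSO and rose by 1.64 ± 0.072 log2 (SE), 3.12-fold (adjusted p = 5.98e-17). TRPM1, a melanocyte channel whose gene MITF activates, rose by 1.79, and the melanosome fibre protein PMEL rose by 1.26, at 12.87 ± 0.031 against 11.61 ± 0.15 log2 (SD, n = 3 each). TYR, the first enzyme of the melanin route, stood at 0.11 and was not called. Of 21 pigmentation genes 11 were higher and 4 lower (median 0.21), the lower ones including the melanocortin receptor MC1R (-0.72) and the transporter SLC45A2 (-0.35).

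The promoters of the pair of pigment genes with the largest rises that hold CATGTG or CACGTG, the E-boxes that MITF can bind, are shown with those words in capitals. TRPM1 lies at chr15:31161111-31161410 (minus strand) and TYRP1 at chr9:12693135-12693434 (plus strand), and their marked words do not overlap.
TRPM1: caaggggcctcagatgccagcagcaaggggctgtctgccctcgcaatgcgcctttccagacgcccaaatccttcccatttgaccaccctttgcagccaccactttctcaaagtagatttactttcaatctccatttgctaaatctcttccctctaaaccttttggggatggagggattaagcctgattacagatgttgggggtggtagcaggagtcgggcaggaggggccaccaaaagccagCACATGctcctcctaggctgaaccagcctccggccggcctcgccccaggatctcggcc
TYRP1: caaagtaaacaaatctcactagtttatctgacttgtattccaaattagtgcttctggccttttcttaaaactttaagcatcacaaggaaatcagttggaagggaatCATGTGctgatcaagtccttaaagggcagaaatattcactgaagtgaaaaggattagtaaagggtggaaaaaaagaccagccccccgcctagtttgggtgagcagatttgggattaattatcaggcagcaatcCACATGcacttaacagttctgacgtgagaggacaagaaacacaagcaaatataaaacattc

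Such an E-box was present in 8 of 17 promoters of the list (47.1%), in 15 of 27 of the lysosomal list (55.6%) and in 16.5% of all 8158. These shares were not tested.

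Of 14 melanocyte lineage factors 5 were higher and 6 lower, close to the shares over all genes. ZEB2, a factor of differentiated melanocytes, stood at 11.03, 11.11 and 11.07 with the inhibitor and 9.10, 8.96 and 8.89 with DMSO and rose by 2.09 ± 0.07 log2 (SE), 4.26-fold (adjusted p = 2.32e-19). Its paralog ZEB1, at 7.01, 7.06 and 7.13 with the inhibitor and 8.41, 8.45 and 8.47 with DMSO, fell by 1.38 ± 0.11 log2 (SE), 2.59-fold (adjusted p = 1.08e-11). The paralogs moved in opposite directions, and neither gene's groups overlapped. TFAP2A rose by 1.69 and SOX10 rose by 0.38, while SOX9 fell by 1.43 and LEF1 fell by 0.94. Neural crest and neuronal genes were higher in 11 of 14 and lower in 1 (median 0.73, the highest of the lists with at least 9 members). Only 14 of the 31 on the array passed the filter, which favours rises among genes low with DMSO, so this rank is uncertain. NGFR, the nerve growth factor receptor of neural crest cells, stood at 11.49, 11.58 and 11.39 log2 on the inhibitor arrays and 9.53, 9.74 and 9.72 on the DMSO arrays and rose by 1.82 ± 0.096 log2 (SE), 3.54-fold (adjusted p = 3.02e-15), and the crest factor FOXD3 rose by 1.66. The list of dedifferentiation and mesenchymal genes, which shares NGFR, JUN, ZEB1, FOSL1 and AXL with lists above, went 5 of 15 higher and 4 lower, with TWIST1 at -1.32 and TGFBI at 1.78.

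Tested matrix genes rose almost without exception. Of 26 tested collagens, laminins and associated proteins, from 42 on the array, 24 were higher and 1 lower (LAMA4, -0.45), with a median of 0.41. COL5A2 rose by 1.61 ± 0.083 log2 (SE), 3.06-fold (adjusted p = 1.74e-15), and the laminin chain LAMA2 rose by 1.51. The matricellular genes CCN5 and CCN1, the latter a target of YAP and TEAD, stood out. CCN5 stood at 10.64, 10.62 and 10.57 with the inhibitor and 7.47, 7.22 and 7.35 with DMSO and rose by 3.27 ± 0.10 log2 (SE), 9.62-fold (adjusted p = 6.69e-20), and CCN1 rose by 2.84 log2 from a DMSO level that itself had dropped by 2.85 log2 since 3 h. CCN2 stood at 0.077 and was not called. Of 19 YAP-TEAD targets and CCN genes 10 were higher and 5 lower. Among proteases and inhibitors 11 of 25 were higher and 8 lower, with the collagenase MMP1 at -1.57 and the serpin SERPINF1, an inhibitor of vessel growth, at 2.35. Of 10 integrins 4 were higher, led by ITGA2 (1.73), and 2 lower, ITGA9 (-1.45) and ITGB3 (-0.57).

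In secreted signalling, DKK1, an antagonist of WNT receptors, stood at 12.11, 12.09 and 12.13 log2 on the inhibitor arrays and 8.40, 8.30 and 8.54 on the DMSO arrays and rose by 3.70 ± 0.077 log2 (SE), 13.0-fold (adjusted p = 2.30e-23). The WNT receptor FZD7 fell by 2.29 and the receptor-degrading ligase RNF43 fell by 1.27, and 8 of 20 WNT genes were higher and 8 lower. Of 25 TGF-beta and BMP genes 11 were higher and 6 lower: the helix-loop-helix inhibitor ID2 rose by 2.38, FSTL3 rose by 2.22 and the feedback inhibitor SMAD7 fell by 1.33. Of 10 Notch genes 3 were lower, with the targets HEY1 (-1.0) and HEY2 (-0.99), and 1 higher (HES6, 0.59).

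Guidance and cilium genes leaned upward. Semaphorins and plexins, of which 17 of 38 on the array were tested, were higher in 12 and lower in 2, led by SEMA3C (1.74). Cilium genes were higher in 17 of 28 and lower in 4, with TMEM67 of the transition zone at 9.32, 9.45 and 9.40 with the inhibitor and 7.20, 7.22 and 7.11 with DMSO, a rise of 2.21. All 3 tested ephrins were called, EFNB3 (0.81) and EFNA4 (0.43) higher and EFNA5 (-0.75) lower. Of 17 channel genes 9 were higher and 5 lower. The potassium channel KCNJ13 rose by 3.96 from a DMSO mean of 4.45 log2, a level that may be background, since no detection calls were used, and KCNN4, a calcium-gated potassium channel, fell by 2.41 from 11.23.

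Chemokines separated sharply. CXCL8, which attracts neutrophils, stood at 6.45, 6.74 and 6.87 with the inhibitor and 10.51, 10.51 and 10.26 with DMSO and fell by 3.74 ± 0.19 log2 (SE), 13.4-fold (adjusted p = 2.33e-15). CXCL1 fell by 2.54 and the cytokine LIF fell by 2.59, whereas CCL2, which attracts monocytes, stood at 10.71, 10.49 and 10.30 with the inhibitor and 8.35, 8.40 and 8.16 with DMSO and rose by 2.20 ± 0.13 log2 (SE), 4.60-fold (adjusted p = 2.55e-14). In total 8 of 15 such genes were lower and 5 higher. Of 31 interferon response genes 15 were higher and 7 lower, with the antiviral GTPase MX2 at 1.96 and CMPK2 at -1.01. Of 22 antigen presentation genes 14 were higher and 1 lower, the largest rises being those of the peptide transporter TAP1 (0.79) and TAPBPL (0.73).

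Death and stress genes were mixed. Among 14 BCL2 family genes 6 were higher and 4 lower. BMF, a pro-apoptotic BH3-only protein, stood at 9.81, 10.12 and 10.06 with the inhibitor and 7.30, 7.75 and 7.87 with DMSO and rose by 2.36 ± 0.19 log2 (SE), 5.13-fold (adjusted p = 3.46e-11). PMAIP1, another BH3-only protein and p53 target, stood at 7.15, 7.32 and 7.26 with the inhibitor and 9.97, 10.26 and 10.13 with DMSO and fell by 2.88 ± 0.16 log2 (SE), 7.35-fold (adjusted p = 7.21e-15). Both sets were without overlap. BCL2L11, which encodes BIM, lay below the level filter, at 7.14, 7.30 and 7.33 with the inhibitor and 7.38, 7.44 and 7.32 with DMSO. Of 22 p53 targets 9 were higher and 5 lower, with TP53INP1 at 0.97. Of 28 stress and unfolded protein response genes 9 went each way, close to the shares over all genes. Of 38 chromatin regulators 16 were lower and 13 higher, with the methyltransferase SUV39H1 at -2.04, the lamin LMNB1 at -1.66 and the deacetylase HDAC5 at 1.17.

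Several of the largest changes lay outside these lists. CPN1, which encodes the catalytic chain of carboxypeptidase N, stood at 7.95, 8.18 and 8.30 log2 on the inhibitor arrays and 12.59, 12.48 and 12.46 on the DMSO arrays and fell by 4.37 ± 0.08 log2 (SE), 20.7-fold (adjusted p = 1.78e-24). SPATS1 fell by 4.54 ± 0.12 log2 (SE), 23.3-fold (adjusted p = 1.69e-21), the membrane protein gene TM4SF1 fell by 3.86, and the receptor gene MRGPRX4 fell by 3.86. DDIAS fell by 3.52 and the organic anion transporter SLCO4A1 fell by 3.54 log2. Among the rises, MAL, a lipid raft protein of myelin, stood at 9.23, 9.19 and 9.49 with the inhibitor and 6.13, 5.47 and 6.09 with DMSO and rose by 3.41 ± 0.19 log2 (SE), 10.6-fold (adjusted p = 1.52e-14). CCDC146 rose by 2.90 and NAT16 rose by 2.84. WIPF3 rose by 3.32, TAC1, which encodes substance P, rose by 3.10, and SLITRK6, a neuronal membrane protein, rose by 3.05. The proteoglycan SPOCK1 rose by 2.95 and LIMCH1 rose by 2.88 log2, and their groups did not overlap. The DMSO means of MAL, TAC1, SPOCK1 and WIPF3 lay between 4.88 and 6.30 log2.

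Set against the 3 h response, most genes called at 24 h had not been called at 3 h. At 3 h, 535 genes were higher (5.51%) and 473 lower (4.87%). The difference between the 24 h and 3 h effects, tested as an interaction, was positive in 2254 genes (23.2%) and negative in 2468 (25.4%). Of the genes lower at 24 h 88.2% were not called at 3 h, and of those higher 85.9%. A gene not called at 3 h may still have changed by then. Of the 473 early falls 305 (64.5%) were lower again at 24 h and 66 were higher, and of the 535 early rises 395 (73.8%) were higher again and 55 lower. The early calls rest on few arrays. Without 3 h inhibitor array b there were 909 rises and 472 falls. Without array c, whose 3' signal exceeded the 5' signal by 0.707 for GAPDH, there were 282 rises and 349 falls, without DMSO arrays a or b there were 313 and 316 or 329 and 317, and with only the 3 h groups in the fit 115 and 180. Over the fits that left out 1 array each, 61.7% to 71.8% of early falls were lower at 24 h and 63.9% to 81.2% of early rises higher. With only the 3 h groups in the fit the shares were 82.2% and 83.5%.

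Several courses stood out. Feedback and EGR genes were already low at 3 h: SPRY4 stood at -4.84 at 3 h and -4.26 at 24 h, a difference of 0.58 ± 0.21 log2 (SE; adjusted p = 0.0215), and DUSP6 lay closer to its DMSO level at 24 h, going from -1.98 to -1.20, a difference of 0.78 ± 0.12 log2 (SE; adjusted p = 2.57e-06). EGR1 stood at -3.25 and -2.96, with a difference of 0.29 ± 0.24 log2 (SE; adjusted p = 0.346). Its inhibitor means were 5.01 and 4.99 log2, within the range of the array medians of the endothelial markers (4.95 to 5.31). Those of the leukocyte markers were lower (3.87 to 4.55). The floor of the EGR1 probes is not known, so a further fall may have gone unseen, and the lack of a call for the difference is not informative. Mitotic genes were not called lower at 3 h. NUF2 stood at 0.064 (adjusted p = 0.7), and of the 63 mitotic genes 2 were higher at 3 h and 0 lower. Of the 46 replication genes 0 were higher at 3 h and 2 lower. Among them MCM10 stood at 0.022 (adjusted p = 0.93), while E2F8 averaged 9.92 log2 with the inhibitor and 10.69 with DMSO at 3 h. ETV4 and ETV5 were not called at 3 h, at -0.23 (adjusted p = 0.42) and -0.38 (adjusted p = 0.177), although EGR3, in the same list as they are, had fallen by 2.65 by then.

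Another course was a change of direction, and the genes of this kind with the largest changes at 24 h are named. CCL2 stood at -1.09 at 3 h and 2.20 at 24 h, a difference of 3.29 ± 0.18 log2 (SE; adjusted p = 2.27e-14). Its DMSO level dropped by 2.66 log2 between the times, so the vehicle arrays moved as well. The orphan receptor NR4A2 (-0.29, then 1.04), NAV3, RBMS2 and the long noncoding RNA LINC02984 also went from lower to higher. The motor protein gene KIF20A went from 0.48 to -2.0, and MYB, a proto-oncogene of progenitor cells, from 0.61 to -1.34; CENPU, CDCA2 and ARMCX2 did likewise. MITF moved from 0.37 to -0.18, a difference of -0.55 ± 0.068 log2 (SE; adjusted p = 1.49e-07), while its DMSO level was 0.52 higher at 24 h. PPARGC1A stayed higher, at 1.27 and then 0.66, with its DMSO level 1.10 higher at 24 h. JUN went from 0.64 to 4.08 while its DMSO level dropped by 1.25.

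**Figure D4:**
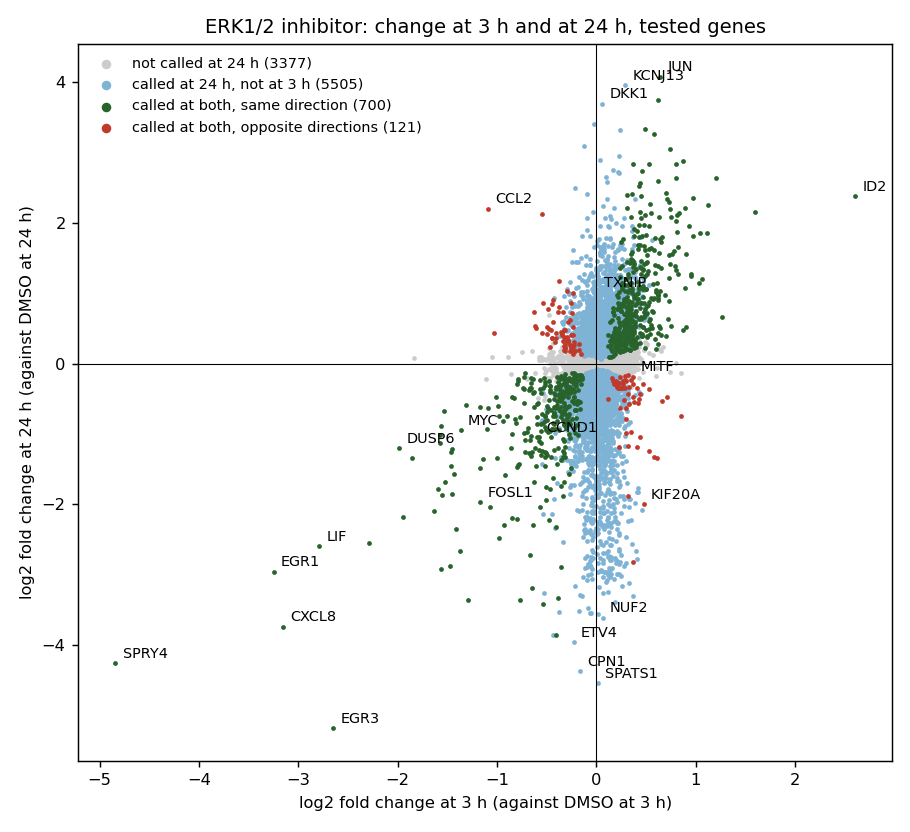
Each point is 1 of 9703 tested genes, with its log2 fold change under ERK1/2 inhibitor at 3 h on the x axis and at 24 h on the y axis; 700 genes were called at both times in 1 direction (green) and 121 in opposite directions (red). The column of points near 0 on the x axis, down to SPATS1 and up to KCNJ13, holds genes that moved far at 24 h and little at 3 h.

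Few genes were called different between trametinib and the ERK1/2 inhibitor at 24 h. The doses differ, so agent and dose cannot be told apart. Both treatments were measured against the same DMSO arrays, and the direct comparison does not use those. It called 9 genes higher with the ERK1/2 inhibitor (0.0928%) and 13 lower (0.134%), of which 4 differed at least 2-fold and 0 were called in opposite directions against DMSO. These 22 calls are not firm. They numbered 1, 4 and 0 without ERK1/2 inhibitor arrays a, b and c, and 3, 1 and 2 without trametinib arrays a, b and c. At an unadjusted p under 0.05 limma gave 1277 of 9703 genes, and 1786 in the fit with 0 adjusted calls. Both exceed what that threshold would give if no gene differed, so small differences may reach more genes than were called. For 8790 genes (90.6%) the 95% interval of the difference lay within 0.5 log2 of 0.

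The difference was -0.13 (95% interval -0.32 to 0.067) log2 for NUF2, 0.066 (95% interval -0.065 to 0.20) for JUN and 0.042 (95% interval -0.26 to 0.34) for SPRY4. It was 0.20 (95% interval 0.033 to 0.37) for DUSP6 and 0.089 (95% interval -0.06 to 0.24) for TYRP1. None of these 5 passed after adjustment, which does not show equal action. The 4 genes with differences of at least 2-fold were all lower with the ERK1/2 inhibitor. They were the noncoding transcripts LINC00597 (-2.07) and LINC00308 (-1.29), DPY19L2 (-1.02) and the ribosomal pseudogene RPL23AP32 (-1.71), whose probes may read its parent gene. In this order their means with that inhibitor (6.76, 6.86, 6.82 and 7.76 log2) lay below the level filter. They were thus tested through other groups where they were higher, and their differences are less certain. The phosphatase-related gene PLPPR5 (0.58, adjusted p = 0.00678) and METTL9 (0.28, adjusted p = 0.00678) were higher. MMP1 stood at -1.57 with the ERK1/2 inhibitor and -1.25 with trametinib (adjusted p = 0.0177 for the difference).

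The hairpin labelled shERK2 targets the kinase's transcript rather than its activity, and its day 7 profile was set beside the inhibitor's. The level of its target is not analysed here, and MAPK3 stood at 0.05 log2 (adjusted p = 0.728). Against NT cells 3204 of 9779 genes were higher (32.8%) and 3078 lower (31.5%). Of 9456 genes tested in both arms, 2067 were higher in both and 1983 lower in both, which is 66.5% of the inhibitor's rises and 65.5% of its falls, and 66.7% and 68.2% of those of shERK2. Controls, duration and doxycycline differ between the arms. A test of the difference between the effects, added after the data were seen, with all 54 arrays in 1 fit, found the inhibitor's effect higher in 1532 genes (16.2%) and lower in 2146 (22.7%).

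Division genes fell further with the inhibitor. All 63 mitotic genes had a lower effect with it than with shERK2 (medians -2.75 and -0.63), as did 42 of 46 replication genes (-1.92 and -0.84) and 19 of 20 repair genes. Pigment genes differed the other way, with 16 of 21 higher under the inhibitor and 1 lower (medians 0.21 and -0.29). Respiratory chain genes were higher in 21 of 44 and lower in 1, though both medians were small (0.069 and -0.14). Lysosomal genes were higher in 13 of 44 and lower in 1, and autophagy genes in 8 and 1 of 33, with medians above 0 in both arms.

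In this fit 432 genes were called in opposite directions by the inhibitor and by shERK2, 241 of them higher with the inhibitor. The genes named were the most different, chosen after their values were seen. SERPINF1 stood at 2.35 with the inhibitor and -2.64 with shERK2 (adjusted p = 1.30e-26), with means of 10.16 and 7.81 log2 in the inhibitor arm and 7.96 and 10.60 in the hairpin arm. PMEL stood at 1.26 with the inhibitor and -1.13 with shERK2, but its controls differed in level. Its means were 12.87 log2 with the inhibitor against 11.61 with DMSO, and 11.63 with shERK2 against 12.76 with NT. CITED1, a coactivator of the melanocyte lineage, stood at 0.93 with the inhibitor and -2.32 with shERK2. LIMCH1 stood at 2.88 with the inhibitor and -0.64 with shERK2. On the other side, FOSL1 stood at -1.97 with the inhibitor and 0.58 with shERK2 (adjusted p = 3.91e-16), MMP1, whose promoter AP-1 drives, at -1.57 with the inhibitor and 0.69 with shERK2, and the matrix protease ADAMTS1 at -1.57 with the inhibitor and 0.65 with shERK2.

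**Figure D5:**
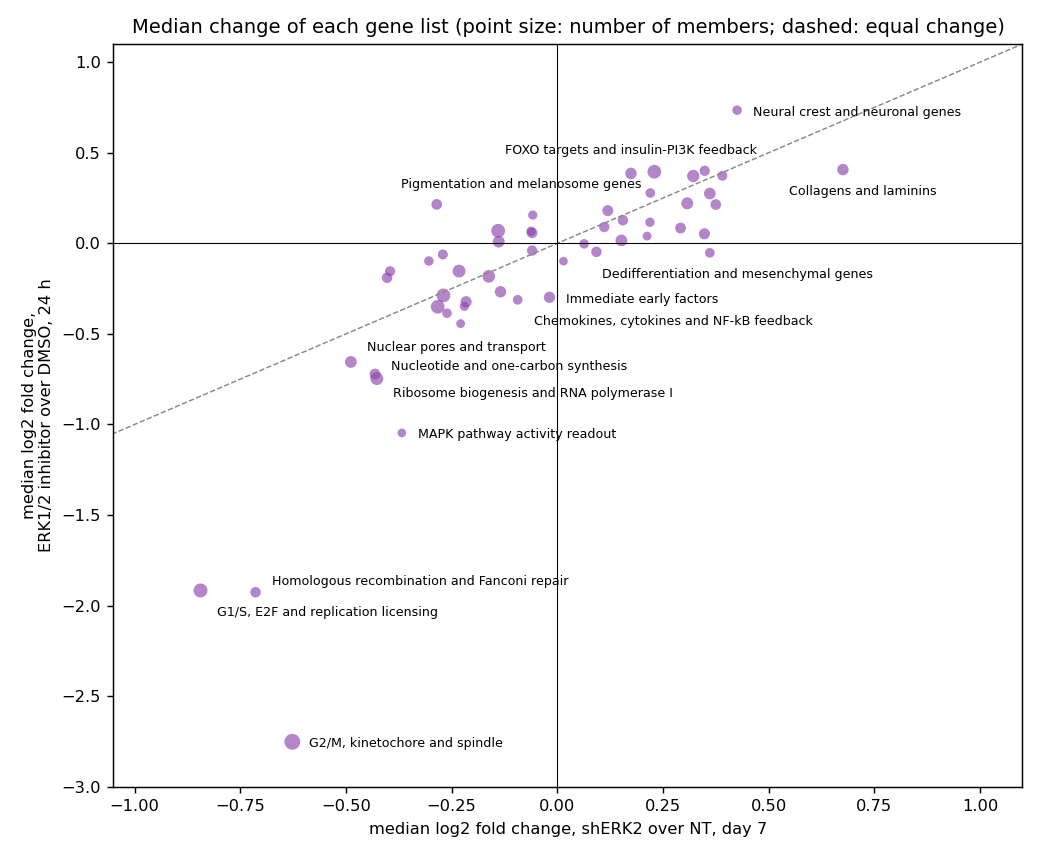
Each point is 1 of the gene lists with at least 9 members tested in both arms, with its median log2 fold change for shERK2 over NT at day 7 on the x axis and for ERK1/2 inhibitor over DMSO at 24 h on the y axis; point size grows with the number of members and the dashed line marks equal change. The mitotic list lies furthest below the line, at -2.75 against -0.63, and the pigmentation list lies above it with medians of opposite sign.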

How the data were processed

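The deposited values are log2 intensities that the authors computed by RMA (R package affy), per the submitters' processing notes. RMA corrects background, quantile-normalises all 54 arrays together and summarises probes, which can hide a shift common to all genes. Versions, chip definition and genome build are not given in the sources used here. Per the labels' protocols, RNA was extracted on columns and labelled as biotin cRNA. Of 18989 probe sets, 62 controls and 1052 sets without a symbol were left out. limma 3.58.1 in R 4.3.3 was fitted to the 30 inhibitor-arm arrays (20 residual degrees of freedom, intensity trend), with p-values adjusted by Benjamini-Hochberg over all 9703 tested genes and a threshold of 0.05. Time and trametinib differences were contrasts of this fit. The comparison of shERK2 with NT came from a separate fit to the 24 hairpin-arm arrays, with 16 residual degrees of freedom. Its p-values were adjusted over the 9779 genes tested there. The difference between the inhibitor and shERK2 effects came from the fit to all 54 arrays, adjusted over 9456 genes. The number of arrays limits precision.

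The members and gene lists were chosen with earlier results of these data known. The genes named were taken from the 15 largest non-overlapping rises and falls, up to 3 called members of each list with the largest rises and falls, the 8 largest time and trametinib differences and the 5 genes each way called in opposite directions at 3 h and 24 h with the largest 24 h changes, members behind counts of 5 or fewer, and 18 genes fixed by name. PTTG1, FOXM1, PCNA, CCNE1, E2F7, TYR, CCN2, TRIM63, FBXO32, H3C3, H1-3 and H1-1 were named after their values were seen. Same-letter arrays of the 24 h inhibitor and DMSO groups did not deviate together (correlations of -0.126, 0.220 and -0.563). That check covers those groups only. In every 3 h group array c had the highest array median, so whether the letters mark a batch is not settled. The main fit held no replicate block. The script was tested on simulated data. Alternatives changed the arrays in the fit, the level filter, the trend, the centring, the quantile step, a replicate block and each array in turn. One of the gene lists is not reported here.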

Additional observations from a re-analysis of the deposited data

Results flagged for a closer look

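The effect of the ERK1/2 inhibitor differed between 24 h and 3 h, by the interaction in limma, in 2254 genes towards higher and 2468 towards lower values at 24 h. Every value below is the 24 h minus the 3 h log2 fold change, and each passed that test.

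The cell division genes had the most uniform late fall. The kinase gene TTK stood at -3.68, NUF2 at -3.67, SPC25 at -3.57, KIF15 at -3.57, CDCA2 at -3.19, KIF20A at -2.47 and the centromere gene CENPU at -2.20. SPATS1 stood at -4.56, CPN1 at -4.21, the ETS factor gene ETV4 at -3.73 and SLCO4A1 at -3.48. MYB stood at -1.94 and ARMCX2 at -1.91, both after an early rise.

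The late rises were more varied in kind. KCNJ13 stood at 3.67, DKK1 at 3.64, JUN at 3.44, MAL at 3.43, CCL2 at 3.29, TAC1 at 3.23, CD36 at 3.13 and WIPF3 at 3.08. LINC02984 stood at 2.67, the neuron navigator gene NAV3 at 1.55, NR4A2 at 1.33 and the RNA-binding protein gene RBMS2 at 1.24, each of these 4 after an early fall.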

How the results depend on the processing

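The counts at 24 h kept within 1.5 times of the reported ones except under a level filter at the 75th percentile, which tests fewer genes and gave 1684 higher, 1889 lower, 579 of at least 2-fold, 556 at 3 h, 2816 for the time difference and 7 for trametinib. With only the groups compared in the fit, 3 h gave 295 and trametinib 56. The trametinib count was also 37 with all 54 arrays, 41 without a level filter, 52 with median-centred arrays and 44 with a replicate block. Leaving out 1 array at a time gave 629 to 1381 genes at 3 h, with 631 without inhibitor array c and 629 and 646 without DMSO arrays a and b, and 0 to 4 for trametinib. The replicate block otherwise gave 3420 higher and 3155 lower genes, 1070 of at least 2-fold, 1435 at 3 h and 6334 for shERK2. The share of rises among the calls was 51.6%, and 46.6% with median-centred arrays. RPS6 changed sign under repeated quantile normalisation, to 0.011 (limma, adjusted p = 0.768). Of 315 named genes 291 kept their direction and side of the threshold under every alternative that tested them, of 14 run; the level filter at the 75th percentile did not test all of them. The cause of these shifts was not tested.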

Other observations

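Several of the genes that rose with the ERK1/2 inhibitor at 24 h had fallen on the DMSO arrays between 3 h and 24 h, so their late levels with the inhibitor were near those of the early vehicle. CCN1 averaged 10.50 log2 with DMSO at 3 h and 7.65 at 24 h (limma, adjusted p = 1.94e-18), and 10.49 with the inhibitor at 24 h, so its late rise equalled its drop under vehicle. CCL2 averaged 10.97, 8.30 and 10.50 in the same order. DACT1, a modulator of WNT signalling, averaged 12.98, 11.46 and 12.72.

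Other late rises went beyond the early vehicle level. DKK1 averaged 10.84 log2 with DMSO at 3 h, 8.41 with DMSO at 24 h and 12.11 with the inhibitor at 24 h, and JUN averaged 9.35, 8.10 and 12.19. AMOTL2, which binds YAP, averaged 11.47, 10.31 and 12.27. TRPM1 and PPARGC1A, by contrast, had climbed under vehicle by 1.07 and 1.10 log2, and the inhibitor's effect came on top of that. These genes were picked after their values were seen, and the cause of the drift under vehicle was not tested.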
